A study of Mus musculus with 6 samples.

Results

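Peaks at the genes of the Krüppel-like factor (KLF) family were examined in chromatin immunoprecipitation sequencing (ChIP-seq) data for KLF3, itself a family member, to ask where KLF3 and its mutants sit at the gene of KLF3 and at the genes of its relatives. The members were Klf2, Klf3, Klf4, Klf5, Klf6, Klf7, Klf8, Klf9, Klf10 and Klf13. A peak was counted for a member when the authors' table of all peaks named that gene as the one with the nearest RefSeq transcription start site (TSS). This rule gave 37 of the 22188 peaks, and each of the 10 genes had at least 1. The assignment rests on distance alone and does not show that a distal peak acts on the gene.

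All cells were Klf3-/- murine embryonic fibroblasts (MEFs) from C57BL/6 mice, so no group had endogenous KLF3. They were rescued through MSCV retroviral transduction with Klf3-V5, with ΔDL-V5, in which the residues DL of the CtBP-contact motif are changed to AS, or with DBD-V5, which lacks the N-terminal domain and keeps the zinc fingers and a putative nuclear localization signal. Each construct was studied in 1 stable clonal line, so a difference between constructs cannot be told apart from a difference between clones. An anti-V5 antibody was used in 2 replicates per construct, with an input for each that enters here only through the authors' peak calling.

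KLFs bind GC-rich and CACCC-type elements through 3 C-terminal zinc fingers that are much alike across the family, whereas their N-terminal domains differ. KLF3 and KLF8 recruit the corepressor CtBP and mostly repress. KLF2, KLF4, KLF5, KLF6 and KLF7 are mostly activators, although KLF4 also binds CtBP. KLF9, KLF10 and KLF13 bind the corepressor SIN3A. Members are known to bind and regulate each other's genes, as in the repression of Klf8 by KLF3.

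The central 101 bases of the peaks that carry the results are shown first, from the mm9 genome, plus strand, 5′ to 3′. Capitals mark each CACCC-type core on either strand, which may be spelled ACACCC, with ACGCCC as another, and with CCACCC and also CCGCCC as the other two. Overlapping matches were each counted. The first set holds promoter and intron peaks that the results return to.
Klf3 promoter, chr5:65194310-65194410: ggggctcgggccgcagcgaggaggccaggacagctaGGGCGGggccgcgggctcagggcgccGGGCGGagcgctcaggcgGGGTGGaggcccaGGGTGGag
Klf3 intron 1, chr5:65203444-65203544: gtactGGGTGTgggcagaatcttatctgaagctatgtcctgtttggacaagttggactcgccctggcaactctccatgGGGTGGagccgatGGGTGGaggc
Klf10 promoter, chr15:38230668-38230768: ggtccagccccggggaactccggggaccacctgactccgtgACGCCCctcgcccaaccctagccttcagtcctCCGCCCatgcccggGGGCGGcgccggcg
Klf13 intron 1, chr7:71082577-71082677: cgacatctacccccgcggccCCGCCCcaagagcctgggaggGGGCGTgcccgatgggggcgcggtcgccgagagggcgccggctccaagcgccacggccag
Klf9 promoter, chr19:23215315-23215415: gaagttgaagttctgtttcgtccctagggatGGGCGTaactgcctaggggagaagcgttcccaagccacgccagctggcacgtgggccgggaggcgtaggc
Klf5 promoter, chr14:99697683-99697783: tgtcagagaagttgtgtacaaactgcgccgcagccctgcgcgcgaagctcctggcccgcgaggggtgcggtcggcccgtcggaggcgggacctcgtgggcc
Klf2 intron 2, chr8:74844250-74844350: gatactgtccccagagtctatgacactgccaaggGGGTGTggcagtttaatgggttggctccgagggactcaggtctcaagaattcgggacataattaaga
The Klf5 window is shown because it is the promoter peak without a core there, although its 400 bp hold 5. The next is the highest distal peak of the family.
Klf6 distal, chr13:6192935-6193035: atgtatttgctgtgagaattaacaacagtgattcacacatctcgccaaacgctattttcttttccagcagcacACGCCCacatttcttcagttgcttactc
The last set holds peaks that were called in both replicates of DBD, and none of these windows holds a core. The 400 bp of the Klf5 and Klf10 peaks among them hold 2 cores each. Of all peaks called in both DBD replicates, 7.86% had a core in the central 101 bases.
Klf6 distal, called in DBD, chr13:6047186-6047286: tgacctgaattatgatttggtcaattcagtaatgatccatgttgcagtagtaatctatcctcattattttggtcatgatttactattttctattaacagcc
Klf5 distal, called in DBD, chr14:100111914-100112014: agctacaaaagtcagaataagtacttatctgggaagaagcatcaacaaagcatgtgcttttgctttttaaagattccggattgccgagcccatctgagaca
Klf10 distal, called in DBD, chr15:38212716-38212816: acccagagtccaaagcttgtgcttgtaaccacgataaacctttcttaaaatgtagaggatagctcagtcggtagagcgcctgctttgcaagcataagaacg

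Peak heights are the authors' log2 tags in the 400 bp of a peak, per 100 M tags, with both replicates of a construct combined. They therefore carry no replicate error, and no test between constructs was made. Scores of single replicates exist for called peaks only and are given as values, since with 2 against 2 replicates the smallest two-sided p of an exact permutation test is 0.333. A 2-fold difference was used as a description, and intervals around it are exact 95% intervals from the tags that cover counting error only. By the scores, the KLF3 lists rest on 5.46 M (replicate 1) and 18.1 M tags (replicate 2), those of ΔDL on 1.77 M and 10.2 M, and those of DBD on 7.81 M and 8.38 M. These are tags that the peak finder counted, fewer than the reads mapped, so they are not the sequencing depth. Replicate 2 supplied 76.8% of the KLF3 tags and 85.3% of the ΔDL tags, so combined heights mostly show it. Over the 2334 peaks called for all 3 constructs, the median height of ΔDL was 1.06 and that of DBD 0.42 above KLF3 on the log2 scale. Differences are given as deposited and, where stated, after scaling to the same median over those peaks. Scaling lowers every ΔDL difference by 1.06 and every DBD difference by 0.42. The set requires a call for both mutants, so it is chosen in part for being high in them, and neither scale was shown to be the right one.

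Most family peaks were found with KLF3, and few with DBD. Of the 37 peaks, 28 were called in both KLF3 replicates, against 64.1% of all peaks. Both ΔDL replicates called 22, against 55.9% of all, and both DBD replicates called 6, against 22.4% of all. By region, 5 peaks were promoter peaks, 7 intronic, 4 exonic and 20 intergenic, and 1 lay at the end of Klf6. Exons held 10.8% of the family peaks and 0.825% of all peaks, and all 4 exonic peaks lay in Klf3. The median KLF3 height was 7.96 for the family and 7.35 over all peaks, on the log2 scale.

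**Figure D1:**
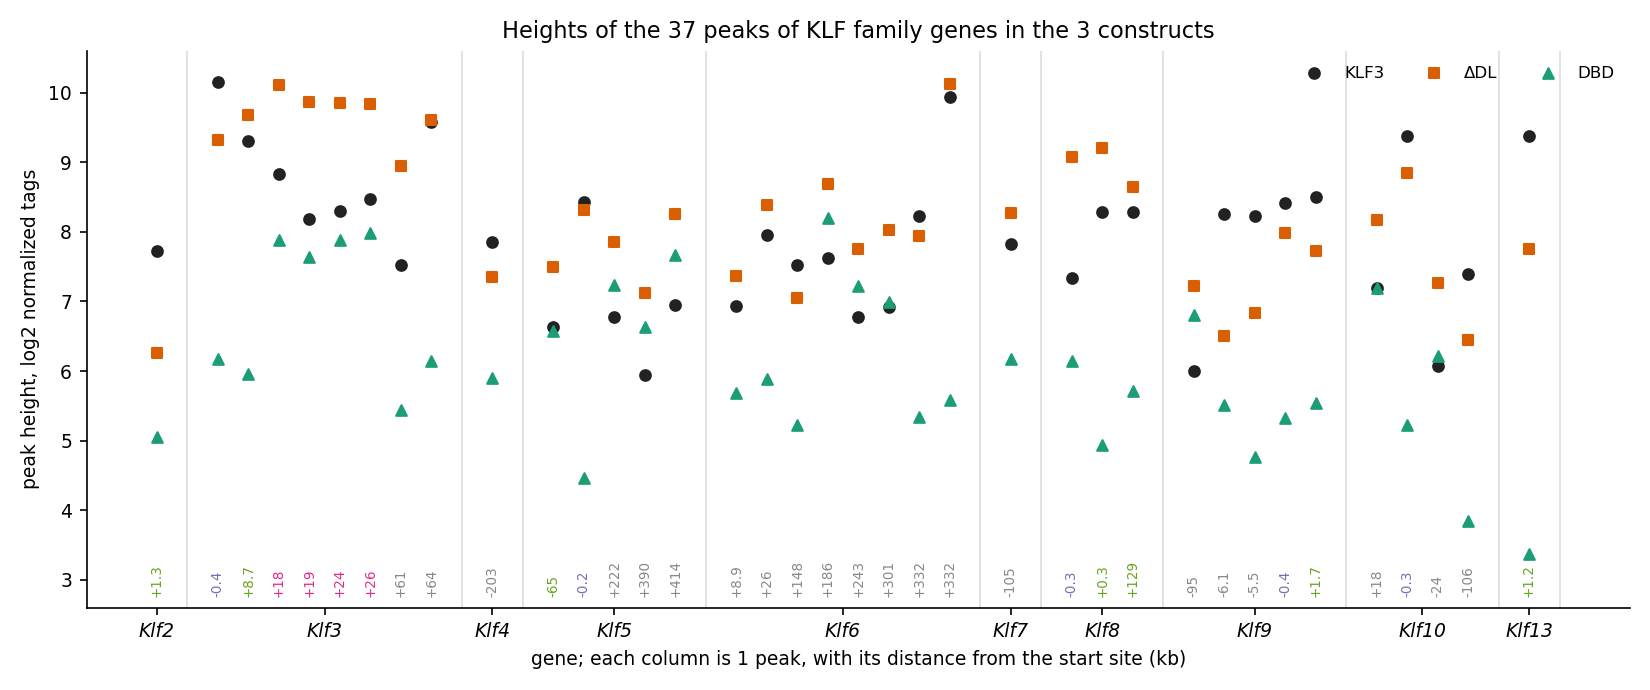
Height (log2 normalized tags, both replicates combined) of every family peak in KLF3, ΔDL and DBD, grouped by gene, with the distance of each peak from the start site in kb (purple promoter, green intron, pink exon, grey intergenic or gene end). The 4 exon peaks of Klf3 have ΔDL heights from 9.84 to 10.11, and DBD lies far below KLF3 at most peaks near start sites but level with or above it at distal peaks of Klf5, Klf6, Klf9 and Klf10.

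By their highest KLF3 peak in the table, the genes fell into 3 levels, between which the intervals of neighbouring genes did not overlap. The highest was taken over 8 peaks at Klf3 and at Klf6 but over 1 at Klf13. Klf3 (264 tags, 95% interval 233.1 to 297.8) and Klf6 (228 tags, 199.4 to 259.6) came first and overlapped each other. Klf13 with 155 tags and Klf10 with 154 followed, with intervals of 131.6 to 181.4 and 130.6 to 180.3. Klf9 with 84, Klf5 with 80, Klf8 with 72, Klf4 with 53, Klf7 with 52 and Klf2 with 48 tags formed the third level, within which each overlapped its neighbour. The ends of this level, Klf9 (67 to 104) and Klf2 (35.4 to 63.6), did not overlap. The Klf3 peak stood at rank 97 and the Klf6 peak at rank 196 of all peaks by KLF3 height.

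Klf3, the gene of the tagged factor, had its highest peak at its own promoter, at chr5:65194160-65194560, centred 402 bp upstream of the start site. The KLF3 replicates called it with 43 and 109 tags and the ΔDL replicates with 6 and 30. No DBD replicate called it. Heights were 10.15 in KLF3, 9.32 in ΔDL and 6.17 in DBD. ΔDL lay below KLF3 by −0.83 (−1.23 to −0.46), and by −1.89 after scaling. DBD lay below by −3.98 (−5.06 to −3.18). The peak had 78.1% G+C and 4 cores in its central 101 bases. In each replicate by itself, the ΔDL score was lower than the KLF3 score of the same number, with log2 ratios of −1.21 and −1.04.

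A second Klf3 peak, at chr5:65203294-65203694, is annotated to RefSeq intron 1. In GENCODE it is centred 84 bp upstream of the start of the transcript Klf3-203, so it marks the upstream side of an alternative first exon. KLF3 had 29 and 76 tags there, ΔDL 11 and 47, and neither DBD replicate called it. Heights were 9.31, 9.68 and 5.96 in KLF3, ΔDL and DBD. The ΔDL difference of 0.37 (−0.02 to 0.74) included 0 and became −0.69 after scaling, so its direction depends on the scale. DBD was lower by −3.35 (−4.65 to −2.53). Its central window has 3 cores, against 4 at the promoter, and the 400 bp peak has 53.4% G+C, against 78.1% there.

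Exons 3, 4, 5 and 6 of Klf3 each held a peak, and these peaks followed another pattern. They lay at chr5:65213032-65213432, 65213987-65214387, 65218208-65218608 and 65220119-65220519. KLF3 heights were 8.83, 8.19, 8.30 and 8.47 in exon order. ΔDL was higher at every exon, with heights of 10.11, 9.86, 9.85 and 9.84 and differences of 1.28, 1.67, 1.55 and 1.37. After scaling the ΔDL differences were 0.22, 0.61, 0.49 and 0.31, still above 0. DBD heights of 7.88, 7.64, 7.88 and 7.98 were among the 6 highest of the family, and the differences from KLF3 were −0.95, −0.55, −0.42 and −0.49.

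The replicates of one construct did not behave alike over these exons. KLF3 replicate 1 called the exons with 14, 22, 15 and 30 tags and replicate 2 with 48, 26, 34 and 33. ΔDL replicate 2 had 62, 84, 73 and 71 tags, and ΔDL replicate 1 called exons 3 and 5, with 5 and 6 tags. DBD replicate 1 had 17, 20, 26 and 20 tags, and DBD replicate 2 called none, although it has slightly more tags in all. DBD replicate 1 also called no peak at the Klf3 promoter or in intron 1. Log2 ratios of ΔDL to KLF3 scores in replicate 2 ran from 1.19 to 2.51 over the 4 exons, whereas in replicate 1 they were 0.14 and 0.31 at the 2 exons with a value.

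The exon peaks kept close to the exons. From exon 2 to the end of the gene, the 6 replicate lists hold 22 peaks, and all 22 overlap an exon by at least 74 bases, of which at least 57 are coding, whereas exons make up 15.3% of that stretch of 13395 bases. ΔDL replicate 2 also had a peak at exon 2, with 25 tags, where coding begins. A second peak in exon 3 was called by KLF3 replicate 1 with 10 tags, ΔDL replicate 2 with 58 and DBD replicate 1 with 16. In GENCODE, exon 3 encodes residues 20 to 181 of 344, and the first of the 3 zinc fingers starts at residue 261, so exon 3 lies upstream of the zinc finger region. The first residue that DBD keeps is not given in the sources used here. None of the exon peaks had a core in its central 101 bases. Of the 528 genes with a peak annotated to a numbered exon in the table, Klf3 and Msh3 had peaks in at least 4 different exons, and both were named after their values were seen. The constructs carry Klf3 coding sequence as integrated copies, and tags from such copies cannot be told apart from tags of the exons of the gene itself.

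**Figure D2:**
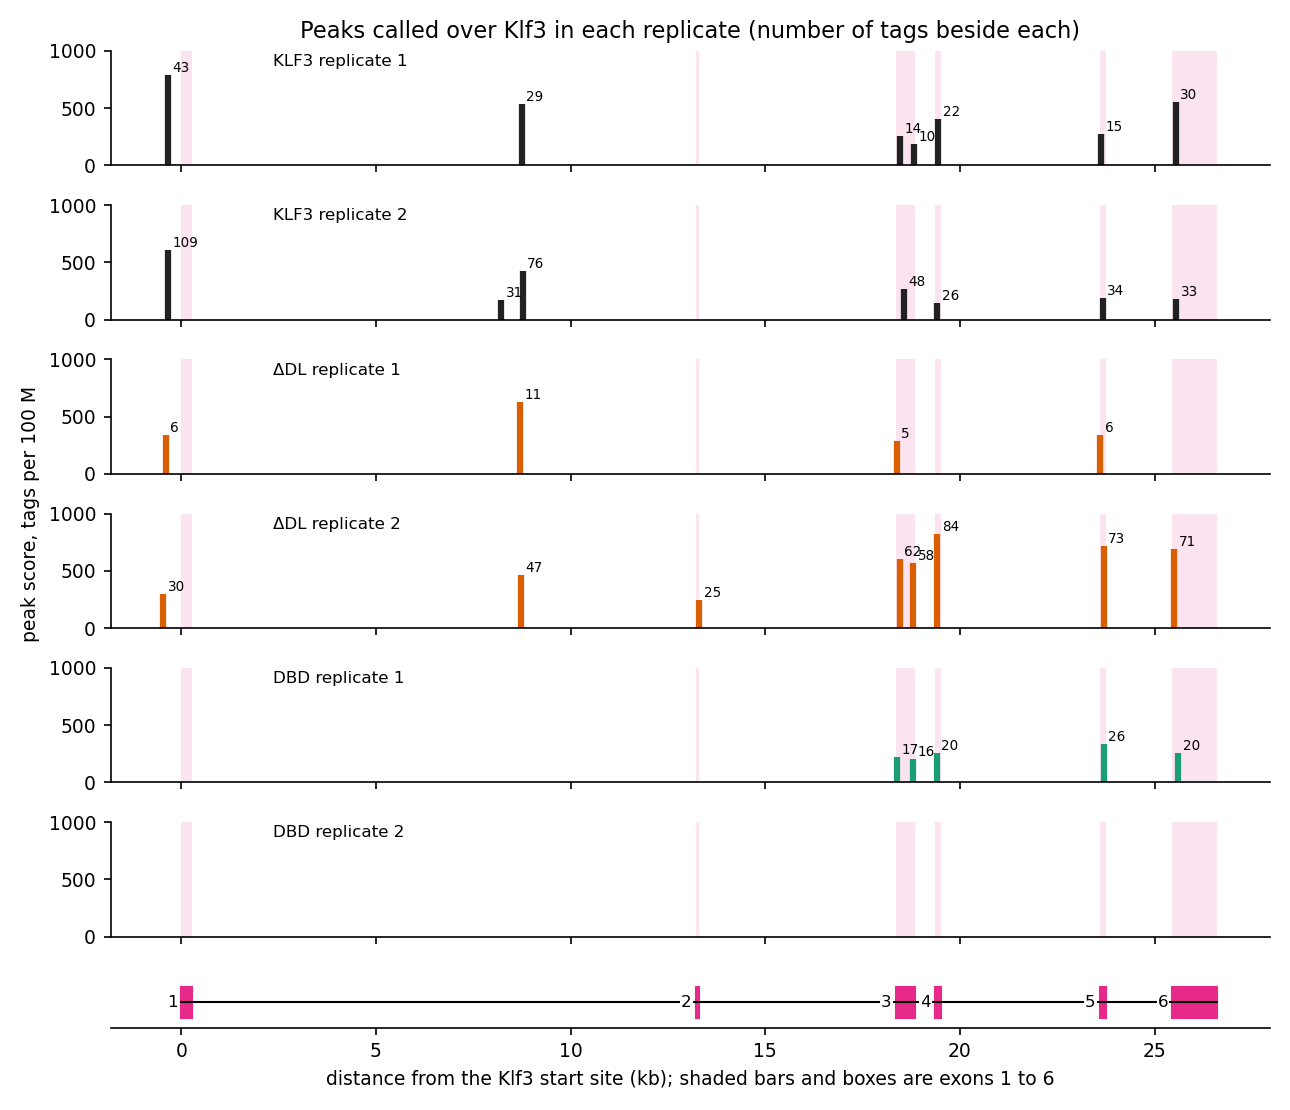
Score (tags per 100 M, vertical axis) of each peak called over Klf3 in the 6 replicates against distance from the start site in kb, with the number of tags beside each bar and exons shaded. KLF3 and ΔDL have peaks at the promoter and in intron 1, all peaks further downstream sit on exons, and DBD replicate 1 has the exon peaks alone while DBD replicate 2 has none.

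2 intergenic Klf3 peaks lay downstream of the gene. The peak at chr5:65258340-65258740, 63.8 kb from the start site, had heights of 9.58 in KLF3, 9.61 in ΔDL and 6.14 in DBD. It was called with 41 and 67 tags in KLF3 and with 9 and 43 in ΔDL. The ΔDL difference was 0.03 (−0.35 to 0.40), or −1.03 after scaling. The peak at chr5:65255911-65256311 had a lower KLF3 height of 7.52, with 23 tags in replicate 2 and no call in replicate 1. ΔDL called it with 11 and 28 tags and had a height of 8.95, 1.43 above KLF3 (0.85 to 2.05) and 0.37 above after scaling. Its window has 4 cores, and the DBD height was 5.44.

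Klf8 also encodes a CtBP-binding repressor. Its 3 peaks were all higher in ΔDL than in KLF3 as deposited, as were 24 of the 37 family peaks and 58.4% of all peaks. At the promoter peak, chrX:149672112-149672512, centred 276 bp upstream of the RefSeq start site, heights were 7.34 in KLF3, 9.07 in ΔDL and 6.14 in DBD. ΔDL called it with 7 and 26 tags, KLF3 in replicate 2 alone with 19. The difference of 1.73 (1.14 to 2.37) was the largest ΔDL gain of the 37 peaks and stayed at 0.67 after scaling. Replicate 2 by itself gave 1.27. The intron 1 peak, chrX:149672700-149673100, had 10 and 28 tags in KLF3 and 7 and 30 in ΔDL. Heights were 8.28, 9.21 and 4.94, with a ΔDL difference of 0.93 (0.42 to 1.41) and a DBD difference of −3.34 (−5.54 to −2.21). The peak in intron 2 at chrX:149801260-149801660 lies in an Lx8 LINE repeat, 7304 bp downstream of the start of another GENCODE transcript, Klf8-001. Its heights were 8.28, 8.65 and 5.72, and it was called with 19 and 38 tags in KLF3 and with 13 and 25 in ΔDL. After scaling, the intron differences of ΔDL turned to −0.13 and −0.69.

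Among the activator genes, Klf5 and Klf6 had several peaks and the others 1 each. Klf2, which is best known from endothelial and T cells, had a peak in intron 2 at chr8:74844100-74844500, 1339 bp downstream of its start site. Its tags were 7 and 21 in KLF3, and neither mutant had a call. Heights were 7.72, 6.26 and 5.05 in KLF3, ΔDL and DBD. ΔDL was lower by −1.46 (−2.90 to −0.51) and DBD by −2.67 (−4.41 to −1.40).

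Klf4, the pluripotency and epithelial factor, had a single peak 203.4 kb upstream, at chr4:55748508-55748908, inside a Charlie13a DNA repeat. It was called with 13 and 22 tags in KLF3 alone, and heights were 7.86, 7.35 and 5.90. Its ΔDL difference of −0.51 (−1.34 to 0.28) included 0. Klf7, known from neurons, had a peak 104.8 kb upstream at chr1:64272526-64272926, with heights of 7.83, 8.27 and 6.18. It was called with 9 and 28 tags in KLF3 and with 7 and 13 in ΔDL. Its ΔDL difference of 0.44 (−0.21 to 1.09) included 0.

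At Klf5, a proliferation factor of epithelia and smooth muscle, the promoter peak and the distal peaks differed. The promoter peak, chr14:99697533-99697933, was called with 8 and 38 tags in KLF3 and with 15 in ΔDL replicate 2. Heights were 8.43 in KLF3, 8.31 in ΔDL and 4.47 in DBD, with differences of −0.12 (−0.74 to 0.45) and −3.96 (−6.50 to −2.60). DBD had 3 tags there. The 4 other Klf5 peaks were low in KLF3, from 5.95 to 6.95. At chr14:100111764-100112164, 414.1 kb downstream, all 6 replicates called a peak, with 9 and 15 tags in KLF3, 9 and 23 in ΔDL and 11 and 14 in DBD. Heights were 6.95, 8.25 and 7.66, so DBD was 0.71 above KLF3 (−0.05 to 1.52). The peak at chr14:99919517-99919917, 221.8 kb downstream, had heights of 6.78, 7.86 and 7.24. The peak at chr14:100087984-100088384, 390.3 kb downstream, had 5.95, 7.12 and 6.64 and was called in no KLF3 replicate. The upstream peak at chr14:99632369-99632769 lies in intron 16 of Pibf1, with heights of 6.63, 7.50 and 6.57. DBD called these 3 in 1 replicate each, with 11, 10 and 10 tags. Both ΔDL replicates called all 3, with 5 and 23, 7 and 11, and 7 and 15 tags, and KLF3 called the first in replicate 2 with 18 and the last in replicate 1 with 7.

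Klf6, an immediate early gene with tumour suppressor functions, had 8 peaks in the table and none at its promoter. The highest was 332.3 kb downstream, at chr13:6192785-6193185, called with 67 and 100 tags in KLF3 and with 13 and 69 in ΔDL. Heights were 9.94, 10.12 and 5.59. The ΔDL difference of 0.18 (−0.14 to 0.50) included 0, and DBD was lower by −4.35 (−5.82 to −3.42). A lower peak beside it, at chr13:6192318-6192718, had 8.22, 7.94 and 5.34. Closer to the gene, the peak 25.5 kb downstream at chr13:5886074-5886474 had 7.96, 8.38 and 5.88, with 11 and 32 tags in KLF3 and 25 in ΔDL replicate 2. Its ΔDL difference of 0.42 (−0.20 to 1.04) included 0. The peak at the transcription end, chr13:5869472-5869872, had 6.94, 7.37 and 5.69, with 7 and 13 tags in KLF3 and 11 in ΔDL replicate 2, and a difference of 0.43 (−0.50 to 1.31). Neither was called in DBD. The peak at chr13:6008956-6009356 had 7.52, 7.05 and 5.22.

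Between these lay 3 Klf6 peaks that both DBD replicates called. At chr13:6047036-6047436, 186.5 kb downstream, the replicates had 23 and 24 tags in KLF3, 14 and 29 in ΔDL and 24 and 23 in DBD. Its heights were 7.62, 8.69 and 8.20, and 8.20 was the highest DBD height of the family. The peak at chr13:6103553-6103953 had 6.78, 7.75 and 7.22, with 8 tags in KLF3 replicate 1 and no call in replicate 2, 7 and 17 in ΔDL and 12 and 11 in DBD. The peak at chr13:6161554-6161954 had 6.92, 8.02 and 6.99, and all 6 replicates called it, with 11 and 22 tags in KLF3, 10 and 19 in ΔDL and 10 in each DBD replicate. These peaks are AT-rich, with 35.2%, 29.7% and 37.2% G+C, and sit within the same stretch as the 332.3 kb peak, which DBD nearly lacked.

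Klf9 encodes a small SIN3A-binding repressor that responds to steroid and thyroid hormones, and the peaks within 10 kb of its start were all lower in ΔDL. The promoter peak, chr19:23215165-23215565, was called with 14 and 36 tags in KLF3 and with 10 in ΔDL replicate 2. Heights were 8.42, 7.98 and 5.33, with a ΔDL difference of −0.44 (−1.13 to 0.16). The intron 1 peak, chr19:23217202-23217602, had 8.50, 7.72 and 5.54, with −0.78 (−1.55 to −0.16). Upstream, peaks at chr19:23209409-23209809 and chr19:23210023-23210423 lie in a CpG island, 219 and 833 bp past the start of the noncoding transcript 2410080I02Rik-001 in GENCODE. Their ΔDL differences of −1.75 (−2.95 to −0.87) and −1.40 (−2.41 to −0.56) were both past 2-fold. In replicate 2 alone the 4 log2 ratios of ΔDL to KLF3 ran from −1.05 to −0.76. The remaining peak, 94.7 kb upstream at chr19:23120774-23121174, was called in both replicates of ΔDL and of DBD and in no KLF3 replicate, with 7 and 9 tags in ΔDL, 10 and 8 in DBD, and heights of 6.00, 7.22 and 6.80.

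Klf10, a TGFβ-induced repressor, had its highest table peak at the promoter, chr15:38230518-38230918, with heights of 9.37 in KLF3, 8.85 in ΔDL and 5.22 in DBD. KLF3 replicate 2 called it with 67 tags and ΔDL with 6 and 17. KLF3 replicate 1 did not, so the table lists this peak for ΔDL and not for KLF3, although KLF3 was higher, with a ΔDL difference of −0.52 (−1.01 to −0.08). The peak 17.7 kb downstream, chr15:38212566-38212966, was called by all 6 replicates, with 11 and 17 tags in KLF3, 12 and 18 in ΔDL and 10 and 12 in DBD. Heights there were 7.20, 8.17 and 7.19. The peak at chr15:38254007-38254407 23.7 kb upstream, had 6.08, 7.27 and 6.22. It was called in ΔDL alone, with 5 and 9 tags and a difference of 1.19 (0.17 to 2.33). The peak 106.1 kb upstream, at chr15:38336352-38336752, had 7.39, 6.45 and 3.85 and is nearer to the start of Azin1 in GENCODE than to that of Klf10.

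Klf13, which encodes a GC-box factor known from lymphocytes and heart, had 1 peak in the table, in a CpG island of intron 1 at chr7:71082427-71082827. The KLF3 replicates called it with 19 and 72 tags and ΔDL replicate 2 with 11. Heights were 9.38, 7.75 and 3.38. ΔDL was lower by −1.63 (−2.33 to −1.04), and DBD by −6.00 (−12.05 to −4.24), from 1 tag against 155. This was the lowest DBD height of the family.

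Near start sites the table leaves out peaks that the replicates called at slightly different places. In Klf10 intron 1, KLF3 replicate 1 had 3 peaks, at 1039, 1414 and 1672 bp, with scores of 421.5, 604.7 and 641.4 tags per 100 M. Replicate 2 had 1 peak at 1235 bp with 84 tags and a score of 464.5, which lies 46 and 63 bp away from the nearest of these and shares no base with them. This was a higher score than that of the same replicate at the Klf10 promoter, 370.5. At Klf13, peaks at 468 and 316 bp missed each other by 19 bp, and peaks at 2504 and 2344 bp by 27 bp. Each had 13 tags in replicate 1 and 42 or 48 in replicate 2. At the Klf13 promoter, KLF3 replicate 1 and ΔDL replicate 2 had 16 and 15 tags at 274 and 270 bp upstream.

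**Figure D3:**
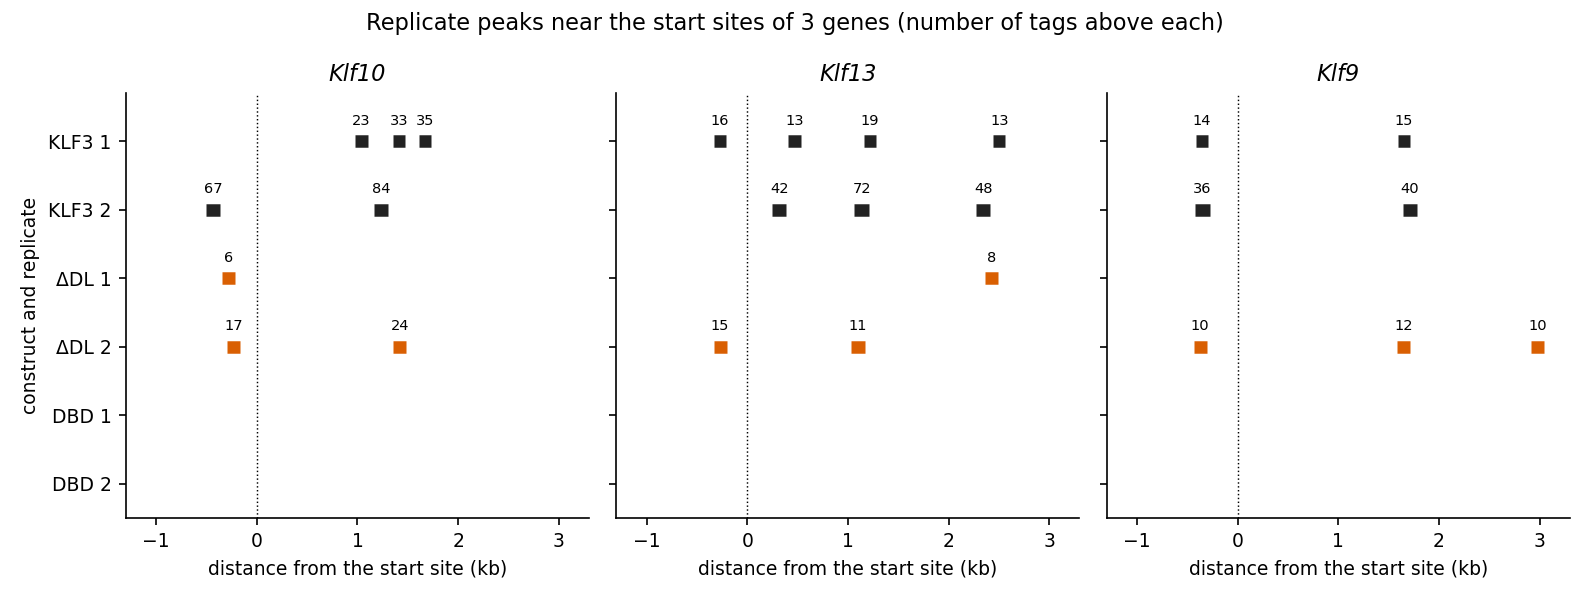
Replicate peaks between 1 kb upstream and 3 kb downstream of the start sites of Klf10, Klf13 and Klf9 (horizontal axis, distance in kb; rows, constructs and replicates; numbers, tags). At Klf9 the peaks of the KLF3 replicates line up, at Klf10 and Klf13 several lie side by side without sharing a base, and neither DBD replicate has a peak.

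A promoter peak was found for 3 members (Klf3, Klf5 and Klf9) when both KLF3 replicates were required, against 16.0% of 21896 protein-coding genes. Replicate 1 alone gave 5 members (19.1% of genes), adding Klf7 and Klf13. Replicate 2 alone gave 8 (27.0% of genes), and either replicate gave 9 (29.2% of genes), all but Klf6. Klf6 had a peak in KLF3 replicate 2 at 125 bp downstream, in its first exon, with 16 tags. Klf2 and Klf4 had promoter peaks in replicate 2 alone, with 24 and 19 tags. At Klf8, KLF3 replicate 2 alone called the promoter peak. The Klf8 intron 1 peak, called in both KLF3 replicates, is centred 312 bp downstream of the start site, past the promoter limit of 100 bp. Within 1 kb upstream to 3 kb downstream of the start sites, KLF3 replicate 1 had 15 peaks at 9 of the genes and replicate 2 had 18 at all 10. ΔDL replicates had 5 and 12 peaks at 4 and 6 genes, and no DBD replicate had a peak there. Of all promoter peaks in the table, both DBD replicates called 1.46%. The share of all genes was not counted for this wider window, so these counts cannot be called particular to the family. KLF3 replicate 2 also has more tags behind its list, and the part of this in its larger number was not tested.

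Most family peaks were lower in DBD than in KLF3, as were most peaks of the table, and fewer differed by 2-fold in ΔDL. A height at least 2-fold below KLF3 was seen for ΔDL at 4 peaks (14.8% of all peaks) and one at least 2-fold above at 13 (28.8% of all). The 4 lower peaks were those of Klf2 and Klf13 and 2 of Klf9. After scaling to the same median, 14 were lower (42.9% of all peaks) and none was higher (0.397% of all), so the direction rests on the scale. The median ΔDL difference was 0.43 for the family and 0.42 over all peaks. DBD was at least 2-fold lower at 23 peaks, or 62.2% of the family (52.6% of all), and at least 2-fold higher at 0 (3.27% of all). Among the 28 family peaks called in both KLF3 replicates it was lower at 20, or 71.4%, against 79.2% of all such peaks, so the family share lay above that of all peaks in one set and below it in the other. The median DBD difference was −2.08 for the family and −1.45 over all peaks. All 5 promoter peaks were at least 2-fold lower in DBD, as were 97.35% of all promoter peaks, and the median difference was −3.96 against −2.99 over all promoter peaks. The 6 peaks called in both DBD replicates lay from 17.7 to 414.1 kb from a start site, and their DBD differences ran from −0.01 to 0.80. These peaks were picked by their DBD calls, so differences near or above 0 follow in part from the choice. Their median difference was 0.51, against 0.49 over all peaks called in both DBD replicates, of which 1.55% were at least 2-fold lower.

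**Figure D4:**
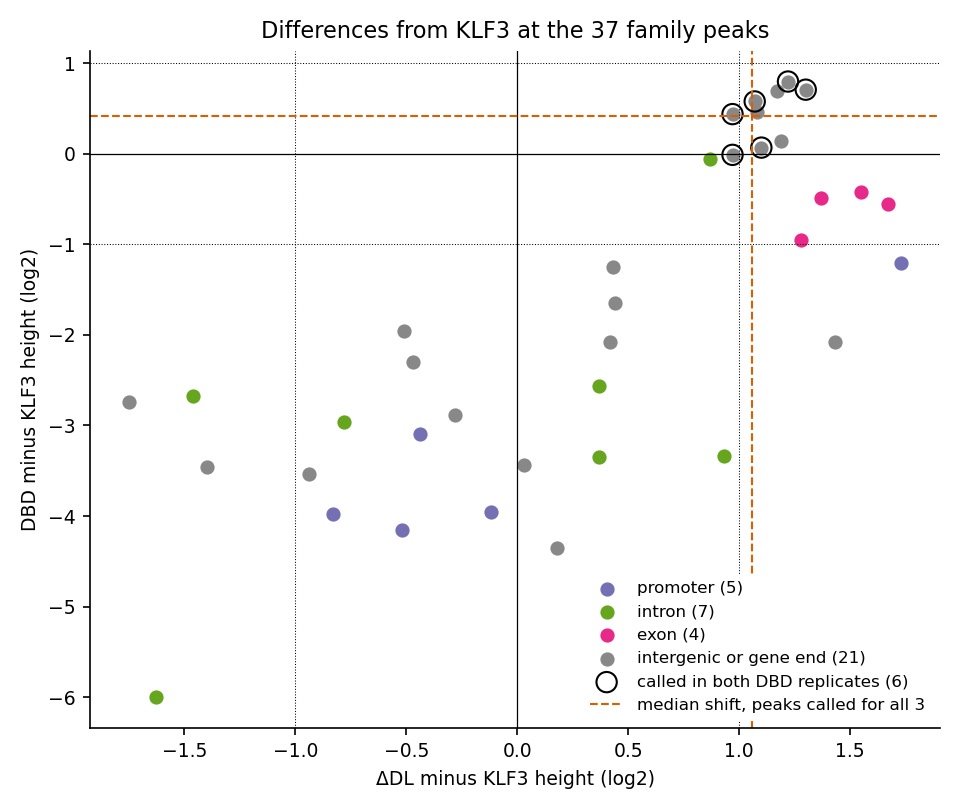
Difference in height from KLF3 (log2) for ΔDL (horizontal) and DBD (vertical) at the 37 family peaks, coloured by region, with dotted lines at 2-fold and dashed lines at the median shift over peaks called for all 3 constructs. Peaks called in both DBD replicates (rings) sit at the upper right near the dashed lines, the 4 exon peaks lie below 0 at ΔDL differences of 1.28 to 1.67, and 4 of 5 promoter peaks lie at the lower left.

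The presence of a CACCC-type core went with a DBD height further below that of KLF3. A core was found in the central 101 bases of 15 of the 37 peaks, against 40.4% of all peaks. All 15 were at least 2-fold lower in DBD, with differences from −6.00 to −1.20, and none was called in both DBD replicates. Of the 22 peaks without a core, 8 were at least 2-fold lower. Over all peaks the shares at least 2-fold lower were 90.3% with a core and 27.1% without. Calls in both DBD replicates were also rare among all peaks with a core, at 390 of 8958, against 4573 of 13230 without. Among peaks called in both KLF3 replicates the counts were 12 of 12 with a core and 8 of 16 without, and the shares over all such peaks were 95.9% and 56.5%. Both the 22 and the 16 include the 4 Klf3 exon peaks, none of them at least 2-fold lower, with DBD differences from −0.95 to −0.42. Tags at these exons cannot be told apart from those of integrated construct copies. The 16 also include 4 peaks that both DBD replicates called. Peaks with a core were also richer in G+C, with a median of 54.9% against 44.8%, and the part of base composition in the DBD difference was not tested. In the 6 peaks called in both DBD replicates, G+C ran from 29.7% to 52.1%. The activator protein 1 element TGACTCA was found in 3 family windows, 2 of Klf6 and 1 of Klf9, or 8.11% against 7.77% of all peaks.

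**Figure D5:**
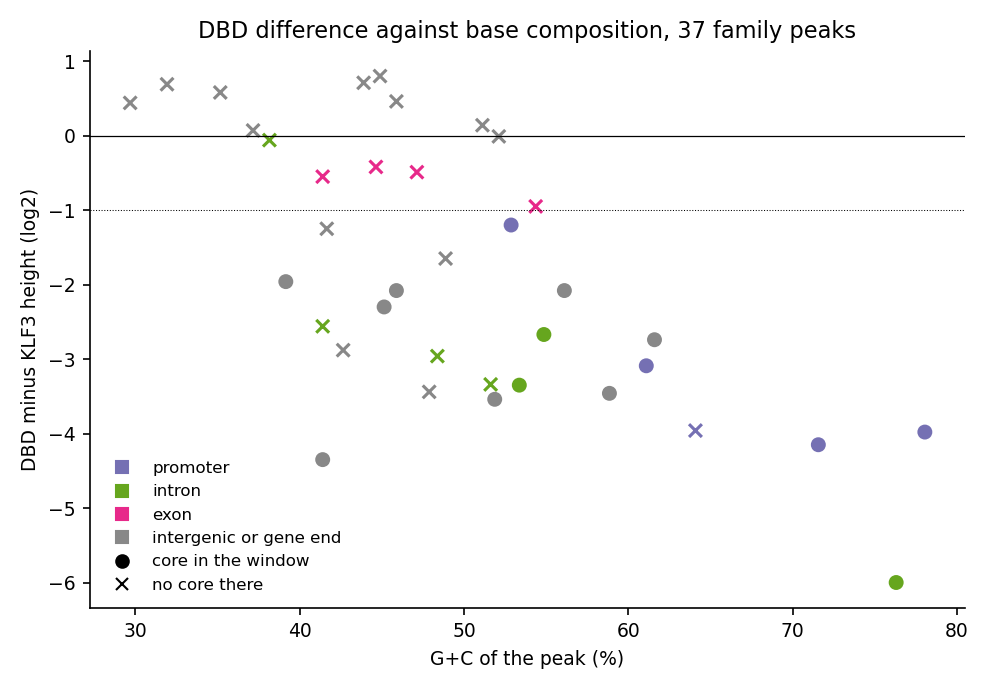
Difference in height between DBD and KLF3 (log2) against the G+C content of each family peak (%), with circles for peaks that hold a core in the central 101 bases and crosses for those that do not, coloured by region. All circles lie below the dotted 2-fold line, and the points above 0 are crosses at 51.1% G+C or less.

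The other KLF and Sp genes, counted from a fixed list, gave 23 peaks. Both replicates called 14 of these in KLF3 (64.1% of all peaks), 15 in ΔDL (55.9% of all) and 6 in DBD (22.4% of all). ΔDL was at least 2-fold lower at 6 (14.8% of all) and higher at 9 (28.8% of all). DBD was lower at 12 (52.6% of all) and higher at 1 (3.27% of all), so the lower share was near that of the whole table. Klf12 had 5 peaks, of which KLF3 called 1 and ΔDL 4 in both replicates. This was not particular to Klf12. Sp8 had 7 peaks, of which KLF3 called 2 and ΔDL 6, and the member Klf5 had 5, of which KLF3 called 2 and ΔDL 4. A promoter peak in both KLF3 replicates was found at Klf11, Sp1, Sp2 and Sp4, against 16.0% of protein-coding genes. The genes of the corepressor itself, Ctbp1 and Ctbp2, had 5 peaks with promoter peaks at both, and 4 of these 5 were at least 2-fold lower in DBD (52.6% of all peaks, 97.35% of promoter peaks).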

How the data were processed

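ChIP-seq peak lists of 3 constructs with 2 replicates each were used. Reads of 50 bp had been placed on mm9 by the authors (Bowtie2 2.0.0, SAMtools 0.1.18), who ran the HOMER 4.1 peak finder for every replicate against its own input (5-fold over input and surroundings, false discovery rate 0.001). FastQC 0.10.1 is also named in the submitters' processing notes. The score in each deposited replicate list is a signal, tags per 100 M, and its whole multiples gave the tags. Heights were deposited as log2 tags per 100 M in 400 bp, both replicates combined, and HOMER's log option adds a random part of about 1 tag. The deposited merged lists also give the fraction of G+C, and this equalled that of the mm9 sequence (tolerance 1e-05) for 14113 of 14115 KLF3 peaks and all 12248 ΔDL and 4955 DBD peaks. Peaks were called in both replicates when a table peak shared at least 1 bp with a peak of each. Promoters run from 1000 bp upstream to 100 bp downstream. Differences are log2 heights minus KLF3, with exact conditional binomial intervals. Tags were recovered from heights by rounding down. Gene models are from GENCODE vM1 on the same build, and protein-coding gene names from RefSeq. Methods were tested on simulated data.

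The members and lists were chosen with earlier results of these data known. Full values are given for promoter peaks, the highest KLF3 peak of each member, peaks as high or higher in ΔDL or DBD than in KLF3, and peaks called for DBD. Others are given mainly by their heights. Separate cultures for the replicates are not stated. Input libraries and expression data were not analysed here. Alternatives were other scaling, fold, distance, overlap, source, score and motif limits. Calculations used scipy 1.17.1, pandas 2.3.3, numpy 2.4.6 and matplotlib 3.10.9 under Python 3.11.15.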

Additional observations from a re-analysis of the deposited data

How the results depend on the processing

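Of 44 alternatives to the counts, 29 stayed within 1.5 times and 15 moved further. Scaling to the same median turned the ΔDL counts from 4 lower and 13 higher into 14 and 0, and a 4-fold limit gave 0 and 0. Higher ΔDL peaks numbered 7 among peaks listed for KLF3 and 8 within 100 kb. Within 100 kb, peaks called in both replicates numbered 18 (KLF3), 13 (ΔDL) and 2 (DBD). Leaving out a replicate gave 30 to 32 peaks for KLF3, 22 (without replicate 2) to 34 (without replicate 1) for ΔDL, 7 to 12 (without replicate 2) for DBD, and 5 to 8 genes with a KLF3 promoter peak. A core was found in 27 peaks over 400 bp, and with CC before it in 8. Lower DBD counts of 16 to 24 were within 1.5 times of 23. Chosen after seeing the data, leaving out the Klf3 exon peaks gave 9 higher in ΔDL, and an overlap of 100 bp replaced the planned 200 bp, which was not run since no replicate peak exceeds 143 bp. No paired analysis was possible because the counts come from no test; ratios of scores within a replicate number are given as values. ΔDL replicate 1 (1.77 M tags by its scores) has the fewest tags.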
